A study of Mus musculus with 10 samples.

Results

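The tuft cell genes described here are *Dclk1*, *Trpm5*, *Pou2f3*, *Il25*, *Gnat3*, *Alox5ap*, *Avil*, *Sh2d6* and *Il17rb*. They were taken as a list of 9 gene symbols, without regard to their levels, and all 9 were found among the 35275 gene IDs counted in the series. RNA-seq was carried out on RNA from frozen segments of proximal mouse intestine, from 5 WT mice and 5 mice labelled KO, with 1 library per mouse. The question was what loss of *Zip14* (*Slc39a14*), a zinc transporter, does to gene expression in this tissue. The labels give an age of 8 to 10 weeks for both groups, while the methods of the study give a wider range of ages and mice of both sexes, without the sex of each mouse. The methods describe the knockout as Zip14-/- in the whole body, with WT controls of the same strain bred from matings of heterozygous mice. The title of the series names a deletion in enterocytes instead, so the group is called KO here. The libraries are named WT1 to WT5 and KO1 to KO5 by the numbers in their labels.

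Tuft cells are rare chemosensory cells of the epithelium. They sense luminal metabolites such as succinate through receptors coupled to a taste-type cascade, in which a G protein activates a phospholipase C, calcium leaves internal stores and the cation channel *Trpm5* opens. In the small intestine they are the main source of the cytokine IL-25, which acts on innate lymphoid cells, and the IL-13 released by these cells acts back on crypt progenitors and raises the numbers of tuft and goblet cells. In whole tissue, a change in the number of tuft cells and a change in the RNA of each cell cannot be told apart.

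Total counts were 16729787 to 20819678 per library in WT mice and 17118742 to 19414828 in KO mice. *Slc39a14* was 260.4 ± 62.5 CPM (mean ± SD, n = 5) in WT and 102 ± 32.9 CPM in KO, and the groups did not overlap (log2 fold change -1.35, SE 0.22, edgeR adjusted p = 0.00184). CPM are read counts scaled to a common library size after TMM normalization. The KO libraries stood apart from their tissue label in 1 respect. The 3 genes of the ileum list, among them *Fabp6* and *Slc10a2*, which serve bile acid uptake in the distal small intestine, summed to 0.765 to 2.86 CPM in WT libraries and to 2548 to 9277 CPM in KO libraries, and all 3 rose. *Apoa4*, an apolipoprotein of proximal enterocytes named after its values were seen, was 3390.2 to 9063 CPM in WT and 18.8 to 493 CPM in KO libraries. Because this held in 5 of 5 KO libraries, the position of the segment along the intestine and the genotype cannot be told apart in any comparison below.

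Among the 9 tuft cell genes, none passed the edgeR test between KO and WT mice, but *Dclk1*, *Trpm5*, *Pou2f3* and the other members were all higher in KO2 and KO3 than in the other 8 libraries. Of the 9 genes, 7 had enough counts for the test (15610 genes tested), and 0 of 7 had an adjusted p under 0.05, where 29.9% of tested genes were called in either direction and 16% as higher. At an unadjusted p under 0.05 there were 2 of 7, *Dclk1* and *Pou2f3*, against 43.3% of tested genes. The 7 log2 fold changes lay between 0.95 and 1.54 with a median of 1.19, beside a median of 0.03 over the genes tested. The 2 genes below the filter on low counts, *Il25* and *Gnat3*, were compared by the difference of mean log2 CPM with an exact permutation test.

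*Pou2f3*, the transcription factor on which the tuft lineage depends (ENSMUSG00000032015, chr9:43123939-43210369 of GRCm38, minus strand), was the member with the largest log2 fold change of the 7. Its level in WT1 to WT5 was 3.17, 2.30, 2.04, 2.09 and 2.35 CPM, and in KO1 to KO5 it was 1.86, 10.5, 16.9, 3.10 and 2.52 CPM. KO1 was below the WT range, KO4 and KO5 were within it, and KO2 and KO3 were above it. The means were 2.39 ± 0.454 and 6.99 ± 6.58 CPM (SD, n = 5), with a log2 fold change of 1.54 (SE 0.57, 95% interval 0.30 to 2.79, edgeR adjusted p = 0.0600). DESeq2 gave nearly the same change, 1.53, with an adjusted p of 0.0171, so the call depended on the tool. With *Gnat3*, DESeq2 called 2 of the 9 members higher, where it called 14.9% of genes higher.

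*Pou2f3* binds the octamer ATGCAAAT or close forms of it. The promoter windows of RefSeq on GRCm38.p6, from 250 bases before to 50 after an annotated start, were searched on both strands for the octamer and for its first 7 bases, ATGCAAA, which the octamer contains. The octamer was in 1.735% and the 7 bases in 4.627% of 32851 windows, and in at least 1 window of 1.969% and 5.24% of the 27025 genes. A window was given for 6 of the 9 members, namely *Dclk1*, *Trpm5*, *Gnat3*, *Avil*, *Sh2d6* and *Il17rb*. None of the 6 held the octamer, and *Avil* held the 7 bases at 2 places, the first 115 bases before the start. Of the other genes of the tuft cell lists, counted as genes with a window, the octamer was in 2 of 10 of the taste-type list (*Sucnr1* and *Itpr3*), 1 of 8 of the eicosanoid list (*Hpgds*), 0 of 7 of the lineage factors, 1 of 15 of the other tuft markers (*Kctd12*) and 3 of 16 of the type 2 list (*Il33*, *Il1rl1* and *Il4ra*). The log2 fold changes of these 7 genes lay on both sides of 0, between -2.11 for *Il33* and 2.43 for *Sucnr1*. In *Sucnr1*, *Kctd12* and *Hpgds*, for which KO2 and KO3 were the highest libraries, it lay 48, 160 and 174 bases before the start, and the stretches of *Sucnr1* and *Kctd12* are given because edgeR called these genes higher. The 250 bases before the start of *Avil*, *Sucnr1* and *Kctd12* are printed with the matches in capitals, and those of *Trpm5*, which held no match, for comparison. The stretches are chr10:127000459-127000708 (plus strand), chr7:143094643-143094892 (minus strand), chr3:60081619-60081868 (plus strand) and chr14:102982638-102982887 (minus strand), each written 5′ to 3′ in the direction of the gene. A match is a match of letters and not a binding site.
Avil: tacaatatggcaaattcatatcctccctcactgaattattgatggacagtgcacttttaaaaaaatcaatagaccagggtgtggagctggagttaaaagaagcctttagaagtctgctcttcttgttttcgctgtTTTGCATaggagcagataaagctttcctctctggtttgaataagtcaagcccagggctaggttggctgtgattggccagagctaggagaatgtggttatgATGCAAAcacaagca
Trpm5: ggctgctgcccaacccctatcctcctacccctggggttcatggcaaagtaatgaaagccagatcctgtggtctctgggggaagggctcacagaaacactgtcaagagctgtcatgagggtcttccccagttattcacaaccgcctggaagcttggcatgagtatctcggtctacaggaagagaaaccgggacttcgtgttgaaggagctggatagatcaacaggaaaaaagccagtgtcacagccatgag
Sucnr1: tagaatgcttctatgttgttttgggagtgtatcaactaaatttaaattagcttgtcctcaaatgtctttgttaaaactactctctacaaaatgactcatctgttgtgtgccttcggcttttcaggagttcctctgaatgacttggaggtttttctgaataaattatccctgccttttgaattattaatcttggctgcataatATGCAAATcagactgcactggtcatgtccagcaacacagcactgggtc
Kctd12: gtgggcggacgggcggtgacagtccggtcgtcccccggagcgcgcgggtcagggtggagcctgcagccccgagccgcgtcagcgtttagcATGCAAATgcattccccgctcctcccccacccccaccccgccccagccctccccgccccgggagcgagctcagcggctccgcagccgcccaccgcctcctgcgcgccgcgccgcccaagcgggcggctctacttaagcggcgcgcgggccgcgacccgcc

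The genes of the taste-type cascade among the members are *Gnat3* and *Trpm5*. *Gnat3* (ENSMUSG00000028777, chr5:17962549-18019834, plus strand) encodes gustducin, the G protein alpha subunit of taste cells. Its level was 0.311, 0.0638, 0, 0.550 and 0.224 CPM in WT1 to WT5 and 0.338, 4.35, 7.77, 0.953 and 0.944 CPM in KO1 to KO5, from 21 counts in all WT libraries together and 271 in the KO libraries. The 0 in WT3 allows up to 0.175 CPM at 3 counts. KO2 to KO5 were above the highest WT library and KO1 was within the WT range. The difference of mean log2 CPM was 2.66 (exact permutation p = 0.0159, two-sided, lowest possible 0.00794), and *Gnat3* was the 1 member of 9 with a permutation p under 0.05, where 41% of tested genes had one. DESeq2, which kept it, called it as well, at 3.61 on the log2 scale (adjusted p = 2.45e-04). Without KO2 and KO3 the difference was 1.50 with an exact permutation p of 0.0893.

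*Trpm5* (ENSMUSG00000009246, chr7:143069153-143094642, minus strand) was 25.5, 14.99, 22.7, 19.3 and 12.9 CPM in WT1 to WT5 and 7.94, 74.1, 102, 17.3 and 14.8 CPM in KO1 to KO5. KO2 and KO3 were several times above the WT range, KO4 and KO5 lay inside it, and KO1 lay below it. The log2 fold change of 1.18 (SE 0.61, 95% interval -0.17 to 2.53) did not pass the edgeR test (adjusted p = 0.165).

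*Dclk1*, *Avil* and *Sh2d6* mark the tuft cell body and its signalling. *Dclk1* (ENSMUSG00000027797, chr3:55242364-55539068, plus strand), a microtubule-associated kinase in common use as a tuft cell marker, was 20.1, 15.5, 19.1, 19.3 and 18.2 CPM in WT1 to WT5 and 9.29, 68.8, 103, 25.4 and 13.1 CPM in KO1 to KO5. The WT libraries lay within a narrow band, and of the KO libraries 3 were above it and 2 below it. Its log2 fold change was 1.25 (SE 0.56, 95% interval 0.01 to 2.49, edgeR adjusted p = 0.112). *Dclk1* is also a gene of neurons, and the 12 enteric neuron and glia markers summed to 26.9 to 44.0 CPM in WT and 52.3 to 193 CPM in KO libraries, with 12 of 12 called higher. That sum was 52.3, 82.4, 106, 193 and 74.2 CPM in KO1 to KO5. The part of neurons in *Dclk1* was not tested.

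*Avil* (ENSMUSG00000025432, chr10:127000709-127020994, plus strand) encodes advillin, an actin-binding protein of the villin family. It was 18.0, 12.1, 15.5, 11.7 and 8.74 CPM in WT1 to WT5 and 6.08, 43.2, 77.8, 12.9 and 11.2 CPM in KO1 to KO5, again with KO2 and KO3 above the WT libraries and KO1 below them. The log2 fold change was 1.19 (SE 0.60, edgeR adjusted p = 0.149). *Sh2d6* (ENSMUSG00000052631, chr6:72513641-72521707, minus strand), which encodes an SH2 domain protein, had the largest standard error of the 7 tested members. It was 19.2, 10.0, 16.2, 15.9 and 9.36 CPM in WT1 to WT5 and 3.72, 50.3, 114, 21.3 and 10.9 CPM in KO1 to KO5. KO1 held the lowest and KO3 the highest value of the 10 libraries. The log2 fold change of 1.50 had an SE of 0.71 (edgeR adjusted p = 0.128).

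The effector genes are *Il25* and *Alox5ap*. *Il25* (ENSMUSG00000040770, chr14:54932695-54935837, plus strand), the cytokine by which tuft cells act on innate lymphoid cells, was near the limit of detection. It was 0.208, 0.255, 0, 0.0550 and 0.112 CPM in WT1 to WT5 and 0.113, 0.839, 1.13, 0.572 and 0 CPM in KO1 to KO5, from 11 counts in the WT and 51 in the KO libraries. KO2, KO3 and KO4 were above the WT libraries, with 16, 21 and 12 counts, while KO5 had 0 counts, which allows up to 0.157 CPM. The difference of mean log2 CPM was 1.08 (exact permutation p = 0.175). *Alox5ap* (ENSMUSG00000060063, chr5:149264767-149288153, plus strand) encodes the protein that presents arachidonic acid to 5-lipoxygenase in leukotriene synthesis. It was 7.89, 5.29, 8.22, 5.83 and 5.16 CPM in WT1 to WT5 and 3.77, 15.8, 28.1, 8.82 and 6.03 CPM in KO1 to KO5, with a log2 fold change of 0.95 (SE 0.46, edgeR adjusted p = 0.137). KO4 was slightly above the WT libraries here, together with KO2 and KO3. *Alox5ap* is also a gene of myeloid cells, and the summed macrophage markers were 266 to 374 CPM in WT and 195 to 347 CPM in KO libraries, lowest in KO3. The neutrophil list summed to 6.02 to 8.46 CPM in WT and 1.86 to 8.76 CPM in KO libraries, with 8.76 CPM in KO2 and 7.99 CPM in KO3. The part of myeloid cells in *Alox5ap* was not tested.

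*Il17rb* (ENSMUSG00000015966, chr14:29996135-30008896, minus strand), a subunit of the IL-25 receptor that tuft cells also carry, was 7.47, 4.72, 6.24, 5.55 and 5.72 CPM in WT1 to WT5 and 5.07, 19.3, 23.5, 4.72 and 5.56 CPM in KO1 to KO5. KO1, KO4 and KO5 were within or just below the WT range, so that KO2 and KO3 alone made the difference of the means. The log2 fold change was 0.97 (SE 0.46, edgeR adjusted p = 0.130).

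**Figure D1:**
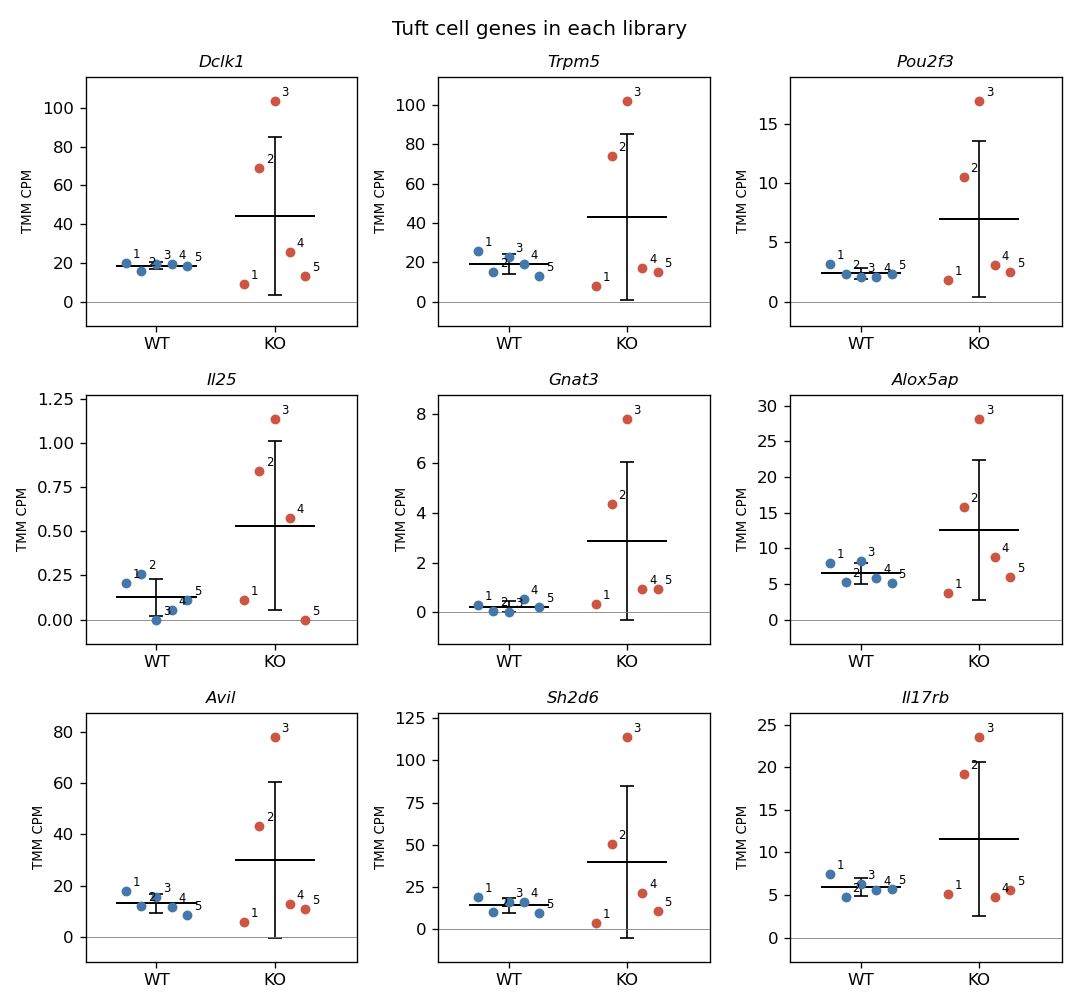
TMM-normalized CPM (vertical axes, linear) of the 9 tuft cell genes in WT and KO libraries, with points numbered by replicate, the mean as a horizontal line and the SD as a bar. KO3 was the highest and KO2 the second highest library in 9 of 9 panels, and the groups overlapped in 9 of 9.

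The 9 genes shared the order of the libraries at the top. KO3 was highest and KO2 second in 9 of 9 members, an order that 3.41% of the tested genes had. KO1 was the lowest library in 6 of the 7 tested members and in 6.53% of the tested genes. This order was noticed in the data and is given as a description, with no test. Relative to the WT median, the 7 tested members were 4.12-fold to 7.38-fold in KO3 and 2.72-fold to 4.59-fold in KO2, and 0.233-fold to 0.887-fold in KO1. *Gnat3* reached 34.7-fold in KO3 and 19.4-fold in KO2, from few counts in WT. The groups overlapped in 9 of 9 members, whereas they did not overlap in 21.1% of the tested genes.

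**Figure D2:**
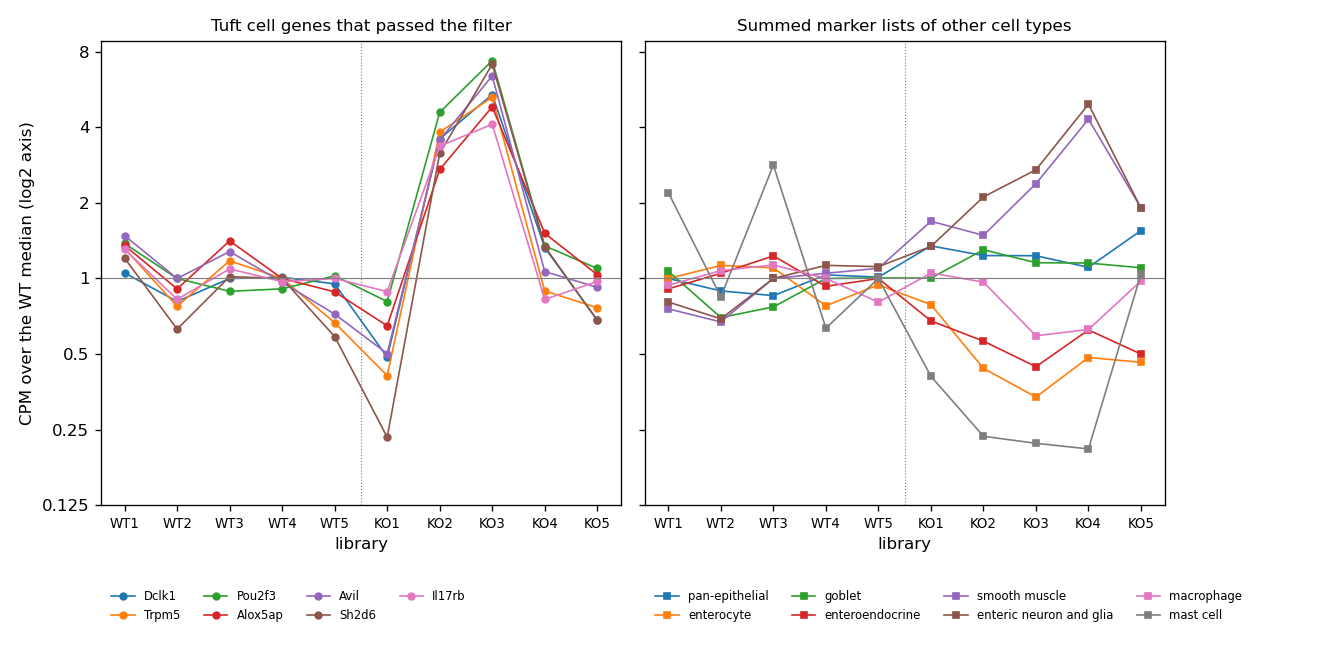
CPM divided by the WT median (vertical axis, log2 scale) in each of the 10 libraries, for the 7 tested tuft cell genes (left) and for 8 summed marker lists of other cell types (right). The tuft cell genes peaked in KO3 at 4.12-fold to 7.38-fold, while smooth muscle and enteric neuron and glia markers peaked in KO4.

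The members moved together over the libraries, some more closely than others. Over the 10 libraries, deviations of log2 CPM from the group mean gave Pearson r between 0.85 and 0.99 for the 21 pairs of the 7 tested members, with a median of 0.96. Without the 2 libraries farthest from the middle of the mean deviation, KO1 and KO3, r was 0.81 to 0.99. Without KO2 and KO3 it ran from 0.03 to 0.97 with a median of 0.71, lowest for the pairs with *Il17rb* (0.03 to 0.47), so part of the likeness rested on those 2 libraries. The points of these correlations share their libraries and depths. The counts of *Avil* were 0.583 to 0.809 of those of *Trpm5* in the 10 libraries, lowest in KO2 and highest in WT2, the smallest ratio of highest to lowest among the 6 members set against *Trpm5*. The ratio of *Dclk1* to *Trpm5* moved more, from 0.790 in WT1 to 1.47 in KO4, and that of *Sh2d6* to *Trpm5* from 0.468 in KO1 to 1.24 in KO4. For *Il17rb* the ratio ran from 0.231 in KO3 to 0.638 in KO1, for *Pou2f3* from 0.0897 in WT3 to 0.234 in KO1 and for *Alox5ap* from 0.214 in KO2 to 0.511 in KO4.

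For 4 of the 7 tested members the call depended on single libraries. Without KO1, edgeR called *Dclk1* (log2 fold change 1.51, adjusted p = 0.0330), *Pou2f3* (1.78, adjusted p = 0.0223), *Alox5ap* (1.18, adjusted p = 0.0398) and *Sh2d6* (1.79, adjusted p = 0.0325), in a fit that called 34.7% of all genes tested. *Pou2f3* was also called without KO4 (1.73, adjusted p = 0.0489) or without KO5 (1.76, adjusted p = 0.0374), where 25.6% and 29.2% of genes were called. Without KO3 none of the 7 was called, where 23.4% of genes were. The median log2 fold change of the 7 was then 0.57, with values from 0.40 to 0.90. For *Gnat3* the call depended on the filter on low counts, since with all 10 libraries and no filter edgeR called it (3.55, adjusted p = 0.0159). It had 0 to 10 counts in the WT libraries and 6, 83, 144, 20 and 18 in KO1 to KO5, so that passing the filter rested mostly on the libraries in which it was high, and its calls with a library left out are not counted here. With KO2 and KO3 both left out, a choice made because they were high in these genes and one that by itself lowers the KO values, 0 members were called, with 20.7% of genes called. The median log2 fold change of the 7 was then -0.21, and 6 of 7 were below 0, with values from -0.51 for *Trpm5* to 0.06 for *Pou2f3*. The positive mean differences of the 7 tested genes thus rested on KO2 and KO3.

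**Figure D3:**
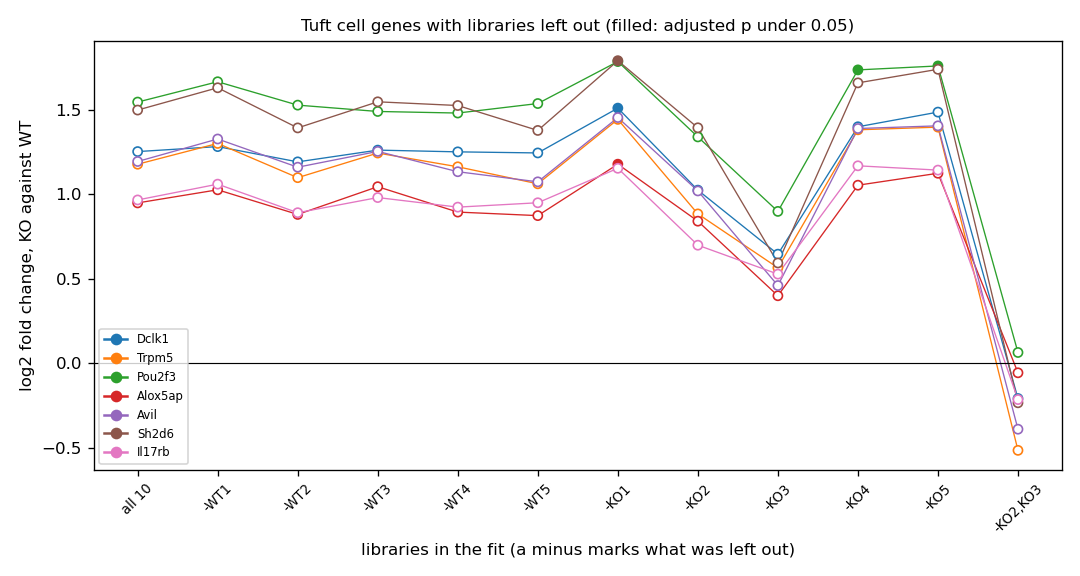
Log2 fold change of KO against WT (vertical axis) of the 7 tested tuft cell genes with all 10 libraries, with each library left out in turn and with KO2 and KO3 both left out (horizontal axis), where filled points have an edgeR adjusted p under 0.05. Values lay between 0.95 and 1.54 with all 10 libraries and between -0.51 and 0.06 without KO2 and KO3.

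Per length of the annotated exons, the members differed widely in level in WT mice. In CPM per kb (mean ± SD, n = 5), *Sh2d6* was highest at 8.37 ± 2.53, before *Alox5ap* at 4.56 ± 1.03, *Avil* at 3.89 ± 1.05 and *Trpm5* at 2.98 ± 0.818. *Il17rb* followed at 1.60 ± 0.274, *Dclk1* at 1.21 ± 0.117 and *Pou2f3* at 0.774 ± 0.147, and *Gnat3* (0.169 ± 0.160) and *Il25* (0.118 ± 0.0991) were lowest. Neighbours in this order overlapped in range across the WT libraries, with 1 exception, since *Pou2f3* (0.661 to 1.03 CPM per kb) lay above *Gnat3* (0 to 0.404 CPM per kb). Exon lengths are those of the merged exons of the annotated transcripts of a gene. Exons of *Trpm5*, *Avil*, *Il17rb*, *Alox5ap* and *Dclk1* overlap a gene on the opposite strand by 220, 165, 141, 189 and 87 bases, and without strand in the counting their reads could be counted for either gene.

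The genes most like the members across libraries included *Rgs13*, *Bmx* and *Siglecf*, which were on the lists of tuft cell genes described next. Likeness was measured over the 10 libraries as Pearson r with the mean standardised deviation of the 7 tested members from the group means. The 10 genes with the highest r, from 0.99 to 0.97 (Spearman rho 0.92 to 1), included also *Itprid1*, *Ccnj*, *Strip2*, *Sh2d7*, *Pik3r5* and *Krt23*. *Rgs13*, a regulator of G protein signalling, was 10.5, 6.19, 7.52, 7.58 and 6.44 CPM in WT1 to WT5 and 3.66, 29.0, 38.8, 10.2 and 5.61 CPM in KO1 to KO5. None of the 10 passed the edgeR test (adjusted p = 0.0691 to 0.401). Of the 50 genes with the highest r, 17 belonged to the 4 lists of tuft cell genes described next, without the type 2 list, where 0.276% of the ranked genes did. Over the 8 libraries without KO2 and KO3 it was 3 of 50. The lists were drawn up with these libraries already analysed, and the shares are a description.

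The rest of the tuft cell programme was read from these 5 lists. *Sucnr1*, *Chat* and *Krt18* were among the genes that rose, while *Lta4h*, *Il33* and *Il1rl1* were among those that fell. Counts of called genes are set beside the 16% of tested genes called higher and the 13.9% called lower.

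The taste-type cascade beyond the members was counted in 11 genes, 7 of them tested, with 1 called higher, none lower and a median log2 fold change of 0.16. Without KO2 and KO3 none was called higher, and *Plcb2* was called lower (log2 fold change -0.79, edgeR adjusted p = 0.0132). With scaling to epithelial counts 1 was called higher and 1 lower, *Itpr3* (log2 fold change -0.75, edgeR adjusted p = 0.00199). The called gene was *Sucnr1*, the succinate receptor, at 0.571, 0.128, 0.583, 1.10 and 0.504 CPM in WT1 to WT5 and 0.169, 4.56, 6.96, 2.86 and 1.26 CPM in KO1 to KO5. KO2 to KO5 were above the WT libraries and KO1 was among the lowest. Its log2 fold change was 2.43 (SE 0.76, edgeR adjusted p = 0.0333), and the call was lost without WT1, WT2, WT3, WT5, KO2 or KO3 (adjusted p = 0.0617 to 0.0819). The 3 most abundant genes of the list were not called with all libraries. *Itpr3*, the calcium store channel, was 222 ± 32.8 CPM in WT and 179 ± 46.1 CPM in KO (SD, n = 5, log2 fold change -0.31, edgeR adjusted p = 0.224). *Plcb2* and *Plcg2*, phospholipases C that other cell types also express, had log2 fold changes of -0.09 (SE 0.32) and 0.16 (SE 0.20). KO2 and KO3 were the highest libraries for both, with *Plcg2* at 61.9 and 67.2 CPM against 36.9 to 47.3 CPM in WT, and for 7 of the 11 genes in all.

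Eicosanoid synthesis, the pathway that *Alox5ap* serves, had 8 genes tested, with none called higher, 1 lower and a median log2 fold change of -0.08, or -0.51 without KO2 and KO3, when none was called. *Lta4h*, which makes leukotriene B4 and is widely expressed, fell from 282 ± 8.80 to 174 ± 59.6 CPM (SD, n = 5), and the groups did not overlap. Its log2 fold change was -0.69 (SE 0.20, edgeR adjusted p = 0.0231), with an adjusted p of 0.0504 without WT1. *Ptgs1*, the cyclooxygenase of tuft cells and other cells, was 44.0 ± 7.06 and 42.3 ± 9.27 CPM (log2 fold change -0.06, SE 0.16), and *Pla2g4a*, the phospholipase that releases arachidonic acid, was 23.2 ± 2.74 and 23.2 ± 5.91 CPM, with a log2 fold change of 0.00 (SE 0.18). *Alox5*, the lipoxygenase partner of *Alox5ap*, named after its values were seen, was 11.9, 7.91, 11.8, 6.37 and 4.59 CPM in WT1 to WT5 and 4.06, 17.8, 24.5, 5.77 and 4.14 CPM in KO1 to KO5, with KO2 and KO3 again highest.

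Factors of the tuft and secretory lineages were 8 genes, all tested, with 2 called higher, none lower and a median log2 fold change of 0.58. Without KO2 and KO3, *Ascl2* was called higher and *Atoh1* had an edgeR adjusted p of 0.0612. *Runx1*, named after its values were seen, was then called lower, at a log2 fold change of -0.55 (edgeR adjusted p = 0.0448) against -0.11 with all libraries. *Atoh1*, the factor of secretory cells, was 21.1, 13.1, 13.8, 22.8 and 24.5 CPM in WT1 to WT5 and 28.3, 49.4, 41.8, 25.97 and 38.6 CPM in KO1 to KO5. The groups did not overlap, and the log2 fold change was 0.95 (SE 0.23, edgeR adjusted p = 0.0109), called with any single library left out. *Ascl2*, a factor of crypt stem cells, was 4.55 to 5.94 CPM in WT and 6.42 to 8.29 CPM in KO libraries, also without overlap (log2 fold change 0.51, SE 0.14, edgeR adjusted p = 0.0190), and had an adjusted p of 0.0518 without WT1 and 0.0541 without WT3. *Sox9*, a factor of crypt cells and some tuft cells, was 23.7 ± 4.86 and 34.6 ± 8.87 CPM (log2 fold change 0.55, edgeR adjusted p = 0.0515, DESeq2 adjusted p = 0.0393). *Spib*, a factor of tuft, M and B cells, was 11.8, 7.85, 11.3, 9.73 and 22.6 CPM in WT1 to WT5 and 3.94, 54.7, 68.0, 45.6 and 7.13 CPM in KO1 to KO5. It was high in WT5, KO2, KO3 and KO4, the same libraries in which the B cell gene *Ms4a1*, named after its values were seen, was 15.5, 33.1, 29.7 and 31.9 CPM, against 0.363 to 0.892 CPM in the other 6. The part of B cells in *Spib* was not tested. The B and plasma cell list summed to 780.4 to 1358 CPM in WT and 401 to 1430.3 CPM in KO libraries, with *Jchain* as its most abundant gene.

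Other tuft cell markers were 20 genes, all tested, with 7 called higher, none lower and a median log2 fold change of 0.93. The median was 0.53 without KO3 and 0.03 without KO2 and KO3, when *Krt18*, *Inpp5j* and *Espn* were called higher. *Fyb*, an adaptor of T cells and myeloid cells, and *Cwh43*, both named after their values were seen, were then called lower. Their log2 fold changes were -1.23 and -1.42 (edgeR adjusted p = 0.00826 and 0.0222), against -0.49 and 1.02 with all libraries. For both genes 3 of 5 KO libraries lay below all WT libraries. Leaving out libraries because they were high by itself lowers the KO values. KO2 and KO3 were the highest libraries for 16 of the 20, where they were for 5.87% of the tested genes. *Chat*, the choline acetyltransferase by which tuft cells make acetylcholine, was 0.571, 0.638, 0.525, 0.714 and 0.504 CPM in WT1 to WT5 and 0.451, 2.83, 5.99, 2.05 and 0.892 CPM in KO1 to KO5. Its log2 fold change was 2.04 (SE 0.59, edgeR adjusted p = 0.0243), and the call was lost without WT1, WT2, WT3 or WT5 (adjusted p = 0.0512 to 0.0567) and without KO3, when the change was 1.38 (adjusted p = 0.0572). *Chat* is also a gene of enteric neurons, whose markers were highest in KO4, where *Chat* was 2.05 CPM, and its part from neurons was not tested. *Kctd12*, a subunit of GABA-B receptors, was 21.2 to 25.5 CPM in WT libraries and 19.9, 54.4, 82.5, 43.6 and 29.7 CPM in KO1 to KO5 (log2 fold change 1.02, SE 0.31, edgeR adjusted p = 0.0291). It shares 3805 of its 6057 exon bases with *Gm26778*, a noncoding gene on the opposite strand, so that its reads could be counted for either gene. Its call was lost without any of the WT libraries, KO2 or KO3 (adjusted p = 0.0525 to 0.0640).

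Of the called genes of this list, *Krt18*, *Inpp5j* and *Espn* were higher in all 5 KO libraries than in any WT library. *Krt18*, a keratin of simple epithelia, was 171, 123, 140.5, 176 and 166 CPM in WT1 to WT5 and 249, 397, 575, 337 and 305 CPM in KO1 to KO5, without overlap (log2 fold change 1.26, SE 0.21, edgeR adjusted p = 0.00205). *Inpp5j*, a phosphoinositide phosphatase, rose from 18.8 to 27.6 CPM to 50.5 to 125 CPM, highest in KO5 (log2 fold change 1.81, SE 0.22, edgeR adjusted p = 4.52e-04). Both were called with any single library left out and with KO2 and KO3 both left out. *Espn*, an actin bundling protein of microvilli, had a log2 fold change of 0.40 (edgeR adjusted p = 0.0410) and no overlap, but -0.051 with scaling to epithelial counts. *Cd24a* and *Nrep* had log2 fold changes of 0.88 (edgeR adjusted p = 0.0435) and 0.77 (adjusted p = 0.0423). The call was lost for *Cd24a* without any of the WT libraries, KO2 or KO3 (adjusted p = 0.0645 to 0.0996), the change being 0.53 without KO3. It was lost for *Nrep* without WT1, WT2, WT3, WT5, KO2, KO3 or KO4 (0.0576 to 0.103), and for *Espn* without any of the WT libraries, KO2 or KO5 (0.0547 to 0.103). The 8 general epithelial markers summed to 9376 to 11338 CPM in WT and 12151 to 17028 CPM in KO libraries, with 5 of 8 called higher.

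The circuit in which IL-25 acts was counted in 22 genes of type 2 immunity, 16 of them tested, with 2 called higher, 3 lower and a median log2 fold change of 0.18. The split depended on the scaling, with 1 called higher and 6 lower with scaling to epithelial counts (median -0.23) and 3 higher and 2 lower with library size scaling. *Clca1*, a goblet cell product that IL-13 induces, was 1592, 1067, 1017, 1297 and 1208 CPM in WT1 to WT5 and 2689, 5923, 6873, 1979 and 2520.1 CPM in KO1 to KO5. All 5 KO libraries were above the WT libraries, with KO2 and KO3 far above the rest, and the log2 fold change was 1.69 (SE 0.35, edgeR adjusted p = 0.00544) with all libraries and 0.96 (adjusted p = 0.0131) without KO2 and KO3. *Retnlb*, another IL-13-induced goblet cell product, named after its values were seen, was below the filter on low counts. It was 0.104, 0.255, 0, 0.0550 and 0 CPM in WT1 to WT5 and 1.69, 107, 184, 0.429 and 2.57 CPM in KO1 to KO5, from 7 counts in WT and 5530 in KO libraries. The difference of mean log2 CPM was 5.67 (exact permutation p = 0.00794, the smallest that 5 against 5 can give), and KO2 and KO3 held nearly all the counts. *Ang4*, an antimicrobial ribonuclease of Paneth and goblet cells, was 302, 78.3, 68.0, 362 and 286 CPM in WT1 to WT5 and 492, 1377, 2849, 176 and 88.9 CPM in KO1 to KO5 and was not called by edgeR (log2 fold change 2.18, SE 0.87, edgeR adjusted p = 0.0778, DESeq2 adjusted p = 0.0399).

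Other called genes of the circuit were *Il33*, *Il1rl1* and *Stat6*, which fell, and *Il4ra*, which rose. KO2 and KO3 were the highest libraries for 7 of the 22 genes of the list, none of these 4 among them. *Il33*, the alarmin that acts on the same lymphoid cells as IL-25, fell from 31.1 to 52.8 CPM in WT to 4.93 to 13.2 CPM in KO libraries (log2 fold change -2.11, SE 0.26, edgeR adjusted p = 4.84e-04). Its receptor *Il1rl1* fell too, to 9.52, 7.66, 14.3, 5.39 and 10.6 CPM in KO1 to KO5 from 23.8, 17.2, 20.1, 10.9 and 15.8 CPM in WT1 to WT5. Its log2 fold change was -0.89 (SE 0.27, edgeR adjusted p = 0.0284), with the call lost without WT1, WT2, WT3 or KO2 (adjusted p = 0.0550 to 0.0736). *Il4ra*, the receptor chain for IL-4 and IL-13, rose by a log2 fold change of 0.31 (SE 0.08, edgeR adjusted p = 0.0144) without overlap, against -0.12 with scaling to epithelial counts, and *Stat6*, its transcription factor, fell with a log2 fold change of -0.34 (SE 0.11, edgeR adjusted p = 0.0405), a call lost without any of 8 libraries, KO1 and KO5 being the exceptions (adjusted p = 0.0573 to 0.0933). *Il13* itself, named after its values were seen, had 7 counts in WT and 21 in KO libraries and reached 0.892 CPM in KO2 and 0.216 CPM in KO3. *Il1rl1* and *Il33* are expressed by mast and stromal cells among others, and the mast cell list summed to 14.3 to 63.8 CPM in WT and 4.72 to 23.5 CPM in KO libraries. The part of those cells was not tested.

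**Figure D4:**
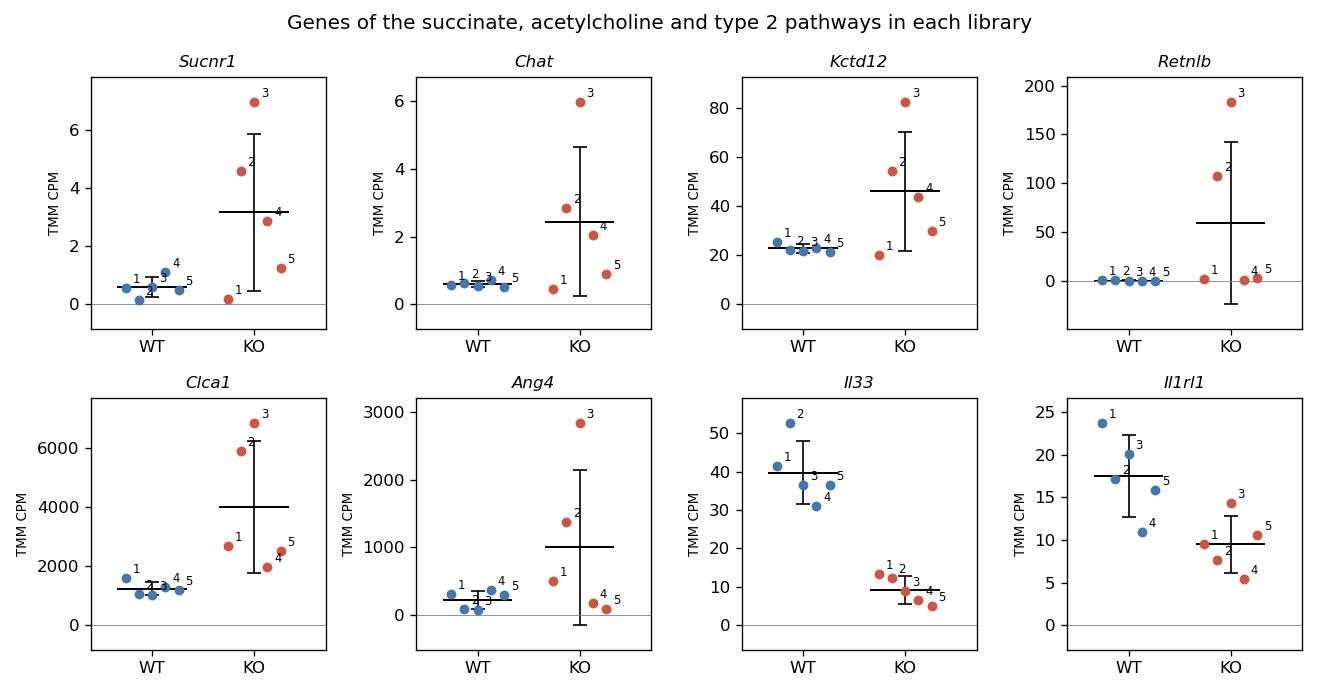
TMM-normalized CPM (vertical axes, linear) of *Sucnr1*, *Chat*, *Kctd12*, *Retnlb*, *Clca1*, *Ang4*, *Il33* and *Il1rl1* in WT and KO libraries, with points numbered by replicate, the mean as a line and the SD as a bar. KO2 and KO3 were the highest libraries for the first 6 genes, while *Il33* was lower in all 5 KO libraries than in any WT library.

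Markers of other cell types also differed between the groups, but mostly not in the order of the tuft cell genes. The smooth muscle list, led by *Myh11* and *Mylk*, had 9 of 10 genes called higher and summed to 1626 to 2659 CPM in WT and 3598 to 10438 CPM in KO libraries. Its 10 genes were each highest in KO4, where *Trpm5* was 17.3 CPM. The enterocyte list, led by *Anpep* and *Apoa1*, had none called higher and 5 of 8 lower, with sums of 27576 to 39936 CPM and 11939 to 27864 CPM, lowest in KO3. The goblet list, led by *Fcgbp* and *Zg16*, had 4 of 6 called higher (sums 10409 to 15904 CPM and 14941 to 19377 CPM, highest in KO2), and the enteroendocrine list 2 of 6 higher and 4 of 6 lower (sums 349 to 473 CPM and 171 to 261 CPM, lowest in KO3). KO2 and KO3 were both the highest libraries for 9 of 9 tuft cell genes and for 0 genes of the pan-epithelial, enterocyte, enteroendocrine, smooth muscle, enteric neuron and glia, macrophage, mast cell, T cell and B and plasma cell lists. They were so for 2 of 6 goblet genes, 1 of 5 neutrophil genes and 1 of 3 ileum genes, each with KO3 highest and KO2 second as in the tuft cell genes. The part of these cell types and of the region in the levels of the tuft cell genes was not tested.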

How the data were processed

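RNA-seq libraries of single mice, 5 WT and 5 KO, were grouped by their labels. For each library the authors deposited read counts on Ensembl gene IDs, as whole numbers and not normalized. The submitters' processing notes name GRCm38 and mm10, FastQC 0.11.9, Trimmomatic, HISAT2 2.0.4, SAMtools 1.3.1 and DESeq2 1.14.1. The read counter, its annotation and the use of strand were not given in the sources used here.

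GENCODE M21 (GRCm38) gave a symbol for 34490 of 35275 gene IDs. Tools were edgeR 4.0.16, DESeq2 1.42.0 and limma 3.58.1 under R 4.3.3. Counts were filtered with filterByExpr (minimum count 10, minimum total 15), which kept 15610 genes, scaled by TMM and compared by edgeR's quasi-likelihood test. P-values were adjusted by Benjamini-Hochberg over the genes tested, and genes under 0.05 were called. CPM in the text use TMM library sizes without a prior count, and log2 CPM a prior count of 2. Members were also compared by an exact two-sided permutation test of the group labels, with 252 arrangements. A count of 0 allows up to 3 counts at 95% confidence, for counting error only. No libraries of a group held the same counts within sampling noise.

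In a simulation of KO against WT on 15610 genes, edgeR recovered 54 of 100 genes changed by 1 and 89 of 100 changed by 2 on the log2 scale, with 5 false among 148 calls, and DESeq2 69 and 93, with 35 false among 197 calls. The simulation changed 200 genes drawn at random, whereas 29.9% of tested genes were called in the data. Its rates therefore need not hold for these data or for the members. Alternatives were RLE and library size scaling, scaling to epithelial counts, DESeq2, other filters, a robust fit, a replicate block, a smooth muscle covariate, a prior count of 0.5 and leaving out libraries.

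The members, lists and rules were chosen with earlier results of these data known. Named were the 9 members, *Slc39a14*, of each of 5 lists the called genes (up to 6 by size of change) and the 3 most abundant, the 10 genes most like the members, and the 2 most abundant genes of a cell type list. Other genes were picked with their values in view and are marked so. Of the genes these rules named, 1 is not reported here.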

Additional observations from a re-analysis of the deposited data

Results flagged for a closer look

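The level of *Pou2f3* in WT1, 3.17 CPM, stood apart from the other 4 WT libraries, which lay between 2.04 and 2.35 CPM. Its gap to the nearest library was a larger share of the range of the group than Dixon's 95% limit for 5 samples. The 9 members were checked in both groups, 18 groups in all, and this was 1 of 18, where chance marks about 1 in 20.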

How the results depend on the processing

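Numbers of called genes depended on the setting. For the tuft cell genes, 0 of 7 with the settings of the report, it was 1 with library size scaling (*Pou2f3*), 2 with DESeq2 (*Pou2f3* and *Gnat3*), 1 without a filter or with a mean count of at least 10 (*Gnat3*), and 1 to 5 with single libraries left out, counting *Gnat3* where it passed the filter. For the taste-type genes it was 1, against 2 with library size scaling, epithelial scaling, no filter or a mean count of at least 10, 4 with DESeq2, 0 with the smooth muscle covariate and 0 to 3 with single libraries left out. For eicosanoid synthesis it was 1, against 2 with epithelial scaling, 0 with the smooth muscle covariate or without KO2 and KO3, and 0 to 1 with single libraries left out. For lineage factors it was 2, against 4 with library size scaling or DESeq2, 1 with epithelial scaling, 0 with the smooth muscle covariate and 1 to 4 with single libraries left out. For other tuft markers it was 7, against 3 with epithelial scaling, 4 without a filter, 0 with the smooth muscle covariate and 2 to 12 with single libraries left out. For type 2 genes it was 5 (2 higher, 3 lower), against 7 with epithelial scaling (1 higher, 6 lower), 7 with DESeq2 (4 higher, 3 lower), 0 with the smooth muscle covariate and 3 to 6 with single libraries left out. By the permutation test 1 member passed, 0 without KO2 and KO3, and 1 to 3 with single libraries left out. The smooth muscle covariate, which differs between the groups, left 0.115% of all tested genes called. That share was 29.9% with the settings of the report, 16.7% without a filter, 30.1% with a mean count of at least 10, 33.3% with library size scaling, 47.7% with epithelial scaling, 28.2% with DESeq2, 20.7% without KO2 and KO3 and 20.2% to 34.7% with single libraries left out (34.7% without KO1).

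Same-numbered WT and KO libraries did not deviate together (correlations -0.167 to 0.177, and 1 of 5 WT libraries correlated best with its own number). No pairing of the mice by number was seen, though 5 pairs cannot exclude it. With the replicate number as a block, 0 members, 0 taste-type genes and 2 other tuft markers were called, where 24.7% of all tested genes were. The median log2 fold change of the 7 members was then 0.66.

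Without KO2 and KO3, directions turned for *Dclk1* (log2 fold change -0.21, difference of mean log2 CPM -0.33), *Trpm5* (-0.51, -0.54), *Alox5ap* (-0.055, -0.11), *Avil* (-0.39, -0.41), *Sh2d6* (-0.23, -0.50) and *Il17rb* (-0.21, -0.20). With the smooth muscle covariate *Nrep* turned to -0.10 and *Stat6* to 0.019, and with epithelial scaling *Espn* to -0.051 and *Il4ra* to -0.12. Epithelial scaling moved the median of all genes to -0.40 and library size scaling to 0.15, with 9.86% and 69.4% of calls higher, against 53.5% with TMM. The median of the 7 members was 0.80 with epithelial scaling. Causes were not tested. Depth limits *Il25* and *Gnat3*, with 11 and 21 counts in WT.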

Other observations

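The taste-type list held 4 genes below the filter on low counts, named after their values were seen. *Gnb3*, a G protein beta subunit of taste cells, had 5 counts in the WT and 58 in the KO libraries, at 0, 0.0638, 0, 0.1099 and 0.112 CPM in WT1 to WT5 and 0.225, 0.472, 0.918, 0.953 and 0.420 CPM in KO1 to KO5. The groups did not overlap (exact permutation p = 0.00794, the smallest possible here, and DESeq2 adjusted p = 9.16e-04), with KO4 and KO3 highest. *Vmn2r26*, a vomeronasal receptor of tuft cells, had 12 counts in the WT and 117 in the KO libraries. It was 0 to 0.259 CPM in WT and 0, 1.26, 3.99, 0.762 and 0.157 CPM in KO1 to KO5, so that 3 of 5 KO libraries were above the WT range (exact permutation p = 0.135, DESeq2 adjusted p = 0.0116). *Gng13*, the gamma subunit, was at 4 and 10 counts and too rare for a comparison. *Tas1r1*, a taste receptor, had 21 and 28 counts, at 0.0560 to 0.525 CPM in WT and 0.0540 to 0.577 CPM in KO libraries (exact permutation p = 0.635).

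Among tested genes that edgeR did not call, *Ffar3*, a receptor for short-chain fatty acids, and *Hmx2*, a factor of tuft cells, had the highest levels in the same libraries as the tuft cell genes and were picked with those levels in view. *Ffar3* was 1.87, 1.34, 1.92, 0.824 and 1.12 CPM in WT1 to WT5 and 0.845, 5.87, 9.18, 3.57 and 1.21 CPM in KO1 to KO5 (log2 fold change 1.54, SE 0.58, edgeR adjusted p = 0.0665). *Hmx2* was 0.727, 0.191, 0.467, 0.385 and 0.672 CPM in WT1 to WT5 and 0.169, 2.99, 4.16, 1.38 and 0.630 CPM in KO1 to KO5 (log2 fold change 1.90, SE 0.69, edgeR adjusted p = 0.0579). DESeq2 called both, with adjusted p of 0.0246 and 0.0223. In both genes KO2 and KO3 were highest and KO4 came next.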
